A study of Mus musculus with 13 samples.

Results

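The guanylate-binding protein genes (Gbp genes) encode large GTPases that cells make in response to interferons. The 10 genes described here are Gbp2, Gbp3, Gbp5 and Gbp7 on chromosome 3 and Gbp4, Gbp6, Gbp8, Gbp9, Gbp10 and Gbp11 on chromosome 5. They were chosen by gene symbol, as a family in which earlier results had shown many mutant-specific peaks, out of 8725 genes that carried a peak of the glucocorticoid receptor (GR) in any list. All peaks that the authors' annotation gives to these symbols were taken, 36 of 24673 peaks under dexamethasone with lipopolysaccharide and 2 of 1379 under dexamethasone alone. Because the peaks chose the genes, the peak numbers below are a description and were not tested.

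GR was mapped by chromatin immunoprecipitation and sequencing in fibroblasts grown from male C57BL/6 mouse embryos, harvested at embryonic day 13.5 and cultured for 7 days. All 13 libraries used the same GR antibody, and all cells had received dexamethasone (Dex, a synthetic glucocorticoid; 1 µM in ethanol, 16 h), so no group lacked the hormone. In the arm that also received lipopolysaccharide (LPS, an inflammatory component of bacterial membranes; 3 h in PBS, with a labelled dose of 100 ng/µl) there were 3 libraries of genotype GR wt/wt, 4 of GR Zn/Zn and 2 of GRKO/KO. With Dex alone there were 2 libraries of GR wt/wt and 2 of GR Zn/Zn. GR Zn/Zn cells carry an altered zinc finger in the DNA-binding domain of the receptor on both alleles, written C437G in the file names, and are called mutant here. Cells with neither Dex nor LPS, and LPS without Dex, were not analysed here, so no peak number can be set against an untreated level.

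The Dex+LPS peaks stood in 3 lists of peaks that were each 200 bp wide, found in wild type alone (wild-type-specific), in both genotypes (shared) or in the mutant alone (mutant-specific). Libraries of a genotype were merged and peaks of knockout cells removed before deposit. There is thus no value per library and no spread between replicates for these lists, and no peak height was used here. The mutant list came from 4 libraries and the wild-type list from 3, at a depth that is unknown, and the effect of this on the class of a peak was not tested. Of the markers of the labelled cell type, 9 of 9 fibroblast genes had a GR peak. Of 7 macrophage genes, 5 had no peak in any class and 2, Cd68 with 2 and Adgre1 with 1, had mutant-specific peaks. None of the 7 had a wild-type peak. Among all protein-coding genes 30.6% had a wild-type-specific and 5.36% a mutant-specific peak, so a peak at a marker is no measure of cell type. Peaks give no expression level, and the part of such cells in the results below was not tested.

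Interferons act through JAK kinases and STAT transcription factors. STAT complexes and interferon regulatory factors bind response elements in the promoters of Gbp genes. The GTPases then assemble on vacuoles that hold parasites or bacteria, and on bacterial surfaces, where they help to break membranes and to bring lipopolysaccharide to inflammatory caspases. Glucocorticoids, through GR, restrain many inflammatory genes, and fibroblasts are among the cells that make Gbp proteins when exposed to interferon.

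On chromosome 3 the starts of 3 Gbp genes of the same group lay beside peaks of 3 different classes. Gbp2 had a wild-type-specific peak just upstream of its start, Gbp7 a shared peak and Gbp3 a mutant-specific peak that began at the start. The sequences of these windows are shown because each peak overlaps its window in part or nearly whole. Each runs from 250 bases before to 50 bases after a start site of the gene in the table, is on the plus strand and comes from RefSeq (GRCm38.p6, the assembly that mm10 is made from). That site is the RefSeq gene start in Gbp2, Gbp5 and Gbp7, and lies 28 bp after it in Gbp3 and 31 bp after it in Gbp2b. Capitals mark letters of the motifs searched on both strands. These were GAAANNGAA, the core of the interferon-stimulated response element (ISRE), TTCNNNGAA, the gamma-activated site (GAS) of interferon-gamma targets, TGANTCA for AP-1, ACANNNTGT for the GR response element (GRE) and GGGANTTCC for NF-kB.

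The wild-type-specific peak of Gbp2 covered 198 of the 300 bases of its window (chr3:142620413-142620712).
Gbp2: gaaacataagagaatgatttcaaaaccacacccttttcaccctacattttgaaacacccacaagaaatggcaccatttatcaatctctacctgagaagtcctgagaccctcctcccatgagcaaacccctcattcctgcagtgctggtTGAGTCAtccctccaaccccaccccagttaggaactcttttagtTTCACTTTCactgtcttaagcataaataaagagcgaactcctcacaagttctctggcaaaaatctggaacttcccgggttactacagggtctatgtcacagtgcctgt
The shared peak covered 191 bases of the Gbp7 window (chr3:142530086-142530385).
Gbp7: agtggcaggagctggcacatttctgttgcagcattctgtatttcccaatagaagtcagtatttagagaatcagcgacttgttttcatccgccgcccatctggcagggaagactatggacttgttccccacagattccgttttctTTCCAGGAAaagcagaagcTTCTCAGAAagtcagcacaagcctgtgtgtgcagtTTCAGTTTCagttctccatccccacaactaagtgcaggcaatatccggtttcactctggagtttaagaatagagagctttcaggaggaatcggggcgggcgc
The mutant-specific peak covered 41 bases, the 3′ end, of the Gbp3 window (chr3:142559794-142560093).
Gbp3: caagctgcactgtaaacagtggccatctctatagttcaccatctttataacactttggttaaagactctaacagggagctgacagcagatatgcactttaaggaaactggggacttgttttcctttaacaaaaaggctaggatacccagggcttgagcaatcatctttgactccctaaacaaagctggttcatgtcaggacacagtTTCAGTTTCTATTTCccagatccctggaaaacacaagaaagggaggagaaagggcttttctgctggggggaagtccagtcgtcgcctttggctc
The window of Gbp5 (chr3:142496684-142496983) held no peak, and is shown because a wild-type-specific peak lay further into the gene.
Gbp5: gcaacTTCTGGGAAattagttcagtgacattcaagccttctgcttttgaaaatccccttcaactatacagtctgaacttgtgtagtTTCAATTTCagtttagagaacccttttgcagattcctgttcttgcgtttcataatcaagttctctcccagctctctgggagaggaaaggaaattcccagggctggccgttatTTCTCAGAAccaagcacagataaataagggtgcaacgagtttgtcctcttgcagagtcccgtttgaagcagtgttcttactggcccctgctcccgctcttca

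ISRE letters stood in the windows of Gbp2, Gbp3, Gbp5 and Gbp7 shown above, whichever class of peak lay beside them. A further window of Gbp3, described below, held none. Counted from the start site of the window, the letters began 58 bp upstream in Gbp2, 52 bp in Gbp7, 44 and 38 bp in Gbp3 (overlapping matches) and 164 bp in Gbp5. Gbp2b, a neighbouring family member outside the 10 genes, held them 136 bp upstream. Of 32851 promoter windows of the same length in the table, 8.56% held these letters. The share was 16.3% of the 184 windows that a mutant-specific peak overlapped, 9.86% of 345 with a shared and 6.11% of 1081 with a wild-type-specific peak, which was not tested. With an A added to the end of the motif the same 4 Gbp genes held it, against 3.44% of all windows. In the Gbp2 peak 6 of the 9 letters lay inside the peak. In Gbp7 the letters began 8 bp beyond the edge of the shared peak, and in Gbp3 they ended 39 bp before the mutant-specific peak began.

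The other motifs were found in fewer of these windows. GAS letters stood at 2 places in the Gbp7 window, both inside the shared peak, and at 2 places in the Gbp5 window, against a share of 8.30% among all windows. The Gbp2 window held AP-1 letters 102 bp upstream of the start site, inside the wild-type-specific peak. They stood in 7.81% of all windows and in 12.9% of those with a wild-type-specific peak. A further start of Gbp3 in the table had a window (chr3:142560106-142560405) of which the mutant-specific peak covered 147 bases. It held no ISRE letters, and GRE letters 115 bp beyond the end of that peak (6.85% of all windows). The 9 letters searched for NF-kB were not found in the 5 windows of the 4 genes, and 1.68% of all windows held them. The broader kappa B consensus of 10 letters, added after seeing the data, stood in 2 of these windows. It began 77 bp upstream of the start site in Gbp5 and 7 bp after it in Gbp2, and 8.46% of all windows held it. A match of letters is a description of the sequence and not a bound site, and no match says only that these letters are not in this window. Identical runs between windows of different Gbp genes, Gbp2b included, were at most 13 bases long over 14 pairs.

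**Figure D1:**
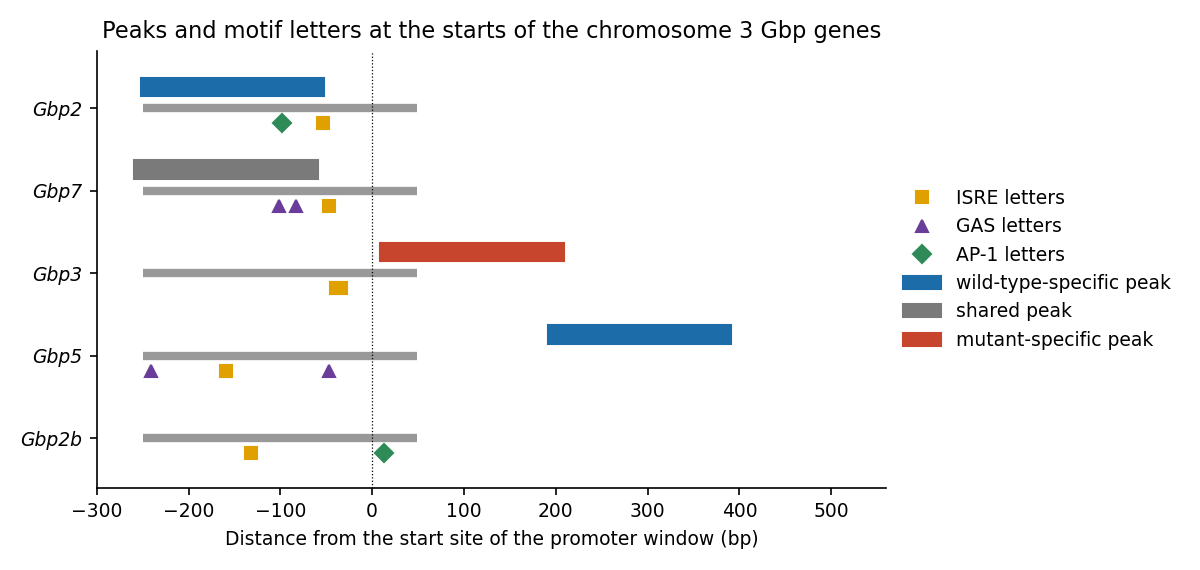
Peaks and motif letters around the start sites of 4 Gbp genes and Gbp2b on chromosome 3, by distance in bp from the start site of the promoter window. Grey lines are the promoter windows, coloured bars the 200 bp peaks and symbols the motif letters. The further Gbp3 window, which held no ISRE letters, is not drawn. ISRE letters lie upstream of all 5 starts, while the peak beside the start is wild-type-specific in Gbp2 and Gbp5, shared in Gbp7, mutant-specific in Gbp3 and absent in Gbp2b.

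Across the 10 genes, mutant-specific peaks were the most frequent class under Dex+LPS. They numbered 27, beside 8 wild-type-specific peaks and 1 shared peak. Mutant-specific peaks thus made up 75% of their peaks, against 8.86% of all Dex+LPS peaks. A mutant-specific peak was assigned to 7 of the 10 genes, a wild-type-specific peak to 4 and a shared peak to 1. For the 9 genes that RefSeq gives as protein-coding, the counts were 6, 3 and 1. Among 21887 protein-coding genes, 5.36% had a mutant-specific, 30.6% a wild-type-specific and 9.37% a shared peak. The genes were chosen with these counts known, so nothing is read from the excess.

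**Figure D2:**
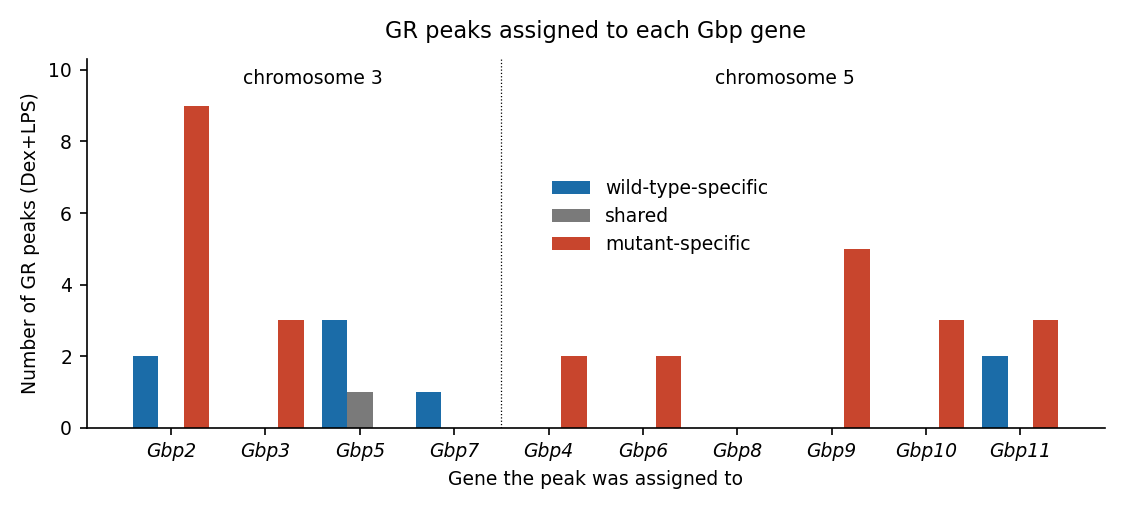
Number of Dex+LPS peaks assigned to each Gbp gene, with 1 bar for each of the 3 classes of the merged lists. Gbp2 stands out with 9 mutant-specific peaks, Gbp5 and Gbp7 have wild-type peaks and no mutant-specific one, and Gbp8 has no peak.

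The 10 genes did not behave alike. Gbp3, Gbp4, Gbp6, Gbp9 and Gbp10 had mutant-specific peaks and no peak of the wild-type lists, a pattern of 1.39% of protein-coding genes. Gbp2 and Gbp11 had wild-type-specific peaks as well as mutant-specific ones. Gbp5 had 3 wild-type-specific peaks and 1 shared peak, and no mutant-specific peak was assigned to it. Gbp7 had 1 wild-type-specific peak. By assigned symbol this puts it among the 21.8% of protein-coding genes with a peak of the wild-type lists and none of the mutant lists. By position it is not of this kind, since the shared peak beside its start was assigned to Gbp2b. Gbp8 had no peak assigned in any of the 7 lists.

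Gbp2, which in mice is recruited to the vacuoles of Toxoplasma, carried the most mutant-specific peaks. Its 9 mutant-specific peaks all lay inside the gene (chromosome 3, 142620663 to 142638008, plus strand), the first centred 3813 bp and the last 15375 bp from the start. Neighbouring centres in this run were 575 to 3355 bp apart, with a median of 1220 bp. In all, 9 of the 21887 protein-coding genes (0.0411%) had 9 or more mutant-specific peaks. Windows of 11561 bp, the length of this run, were laid from each of the 2187 mutant-specific peaks. Of these windows 10 held at least 9 such peaks, and the median window held 1. The 2 wild-type-specific peaks of Gbp2 lay on either side of the run. That upstream (142620411 to 142620610) ended 53 bp before the gene start, and that downstream (142641877 to 142642076) began 3869 bp after the gene end. The wild-type and mutant peaks of Gbp2 thus did not interleave.

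**Figure D3:**
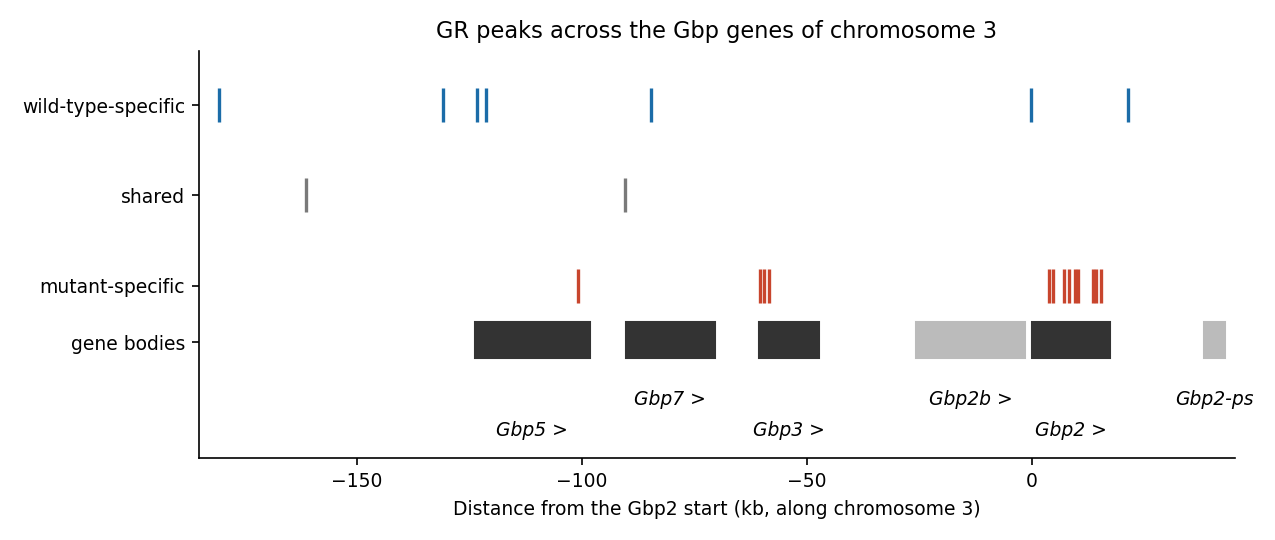
Map of the Gbp genes on chromosome 3, in kb from the Gbp2 start, with RefSeq gene bodies as bars (dark for the genes described, light for Gbp2b and Gbp2-ps) and each peak centre as a tick in the row of its class. The mutant-specific ticks crowd inside Gbp2 and at the start of Gbp3, and the wild-type-specific ticks lie mostly at and upstream of Gbp5.

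Gbp3 had 3 mutant-specific peaks in the first part of the gene, centred 100, 944 and 2100 bp from the start. The first of them (142560053 to 142560252) began 1 bp inside the gene as the files give it. Gbp5 promotes assembly of the NLRP3 inflammasome. It showed the opposite arrangement to Gbp3, with wild-type-specific peaks centred 290 bp and 2354 bp inside the gene and 7104 bp upstream, and a shared peak 37678 bp upstream. The peak nearest to its start (142497125 to 142497324) began 191 bp inside the gene. Gbp7, linked in mice to assembly of the phagocyte oxidase, had a wild-type-specific peak inside the gene, 5578 bp from the start.

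The assignment of peaks to symbols mattered at Gbp5 and Gbp7. The files give Gbp2b a span of 142501262 to 142619176 on chromosome 3, which runs across most of Gbp5, Gbp7 and Gbp3, whereas RefSeq places it at 142594816 to 142619179. In consequence 2 peaks assigned to Gbp2b lay elsewhere. The shared peak (142530077 to 142530276) ended 60 bp before the Gbp7 start, and the mutant-specific peak (142519636 to 142519835) lay inside Gbp5. By position, Gbp7 therefore had a shared peak at its start, and Gbp5 had 1 mutant-specific peak. The body of Gbp2b in RefSeq held no peak of any class.

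On chromosome 5 mutant-specific peaks stood without wild-type peaks along the whole group. Between the outer ends of Gbp8 and Gbp11 (105012513 to 105346476, 334 kb) there were 14 mutant-specific peaks and no wild-type-specific or shared peak. The whole chromosome had 183 shared peaks, 109 that were mutant-specific and 1005 that were wild-type-specific. Between the outer ends of Gbp5 and Gbp2 on chromosome 3 (142496934 to 142638008, 141 kb) 13 peaks were mutant-specific, 4 wild-type-specific and 1 shared. The whole of chromosome 3 had 106 mutant-specific, 1106 wild-type-specific and 189 shared peaks.

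Gbp9 had 5 mutant-specific peaks. The peak at 105110226 to 105110425 overlapped the start of the gene, which is on the minus strand, and peaks centred 528 and 2000 bp upstream followed. The other 2 lay downstream of the gene. Gbp4, the next gene, had 2 mutant-specific peaks, both downstream of its end by 2182 and 1318 bp. They lay in the same short stretch as the peaks upstream of Gbp9, since the end of Gbp4 faces the start of Gbp9. No peak of any class lay within 25 kb of the Gbp4 start, where the nearest edge was 25137 bp away. Whether the peaks between the 2 genes belong to Gbp4 or to Gbp9 cannot be told from positions.

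Gbp6 and Gbp10, which together with Gbp7 have been linked to control of mycobacteria in mouse macrophages, had 2 and 3 mutant-specific peaks. Those of Gbp6 lay inside the gene, centred 1197 and 2105 bp from its start as the files give it. The files place the starts of Gbp6 and Gbp10 at the same base (105293699, minus strand), and the distances of the Gbp10 peaks (23195, 53889 and 78283 bp) are measured from there. RefSeq ends Gbp10 at 105239533. Measured from that base, the peak at 105239711 to 105239910 lay 178 bp upstream of the Gbp10 start, and no Gbp10 peak lay inside the gene. The Gbp10 peak at 105270405 to 105270604 lay by position just beyond the downstream end of Gbp6 (105270702). For Gbp6 the RefSeq start (105295871) was 3270 bp from its nearest peak.

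Gbp11, a transcribed pseudogene in RefSeq, had 3 mutant-specific peaks beside 2 wild-type-specific ones. A mutant-specific peak (105346621 to 105346820) ended 145 bp from its start on the upstream side, and the other 2 lay downstream of the gene. The wild-type-specific peaks lay further upstream, centred 7724 and 16864 bp from the start, at the edge of the gene group. The nearest peak to the body of Gbp8 was a mutant-specific peak assigned to Gbp9, 17864 bp away.

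**Figure D4:**
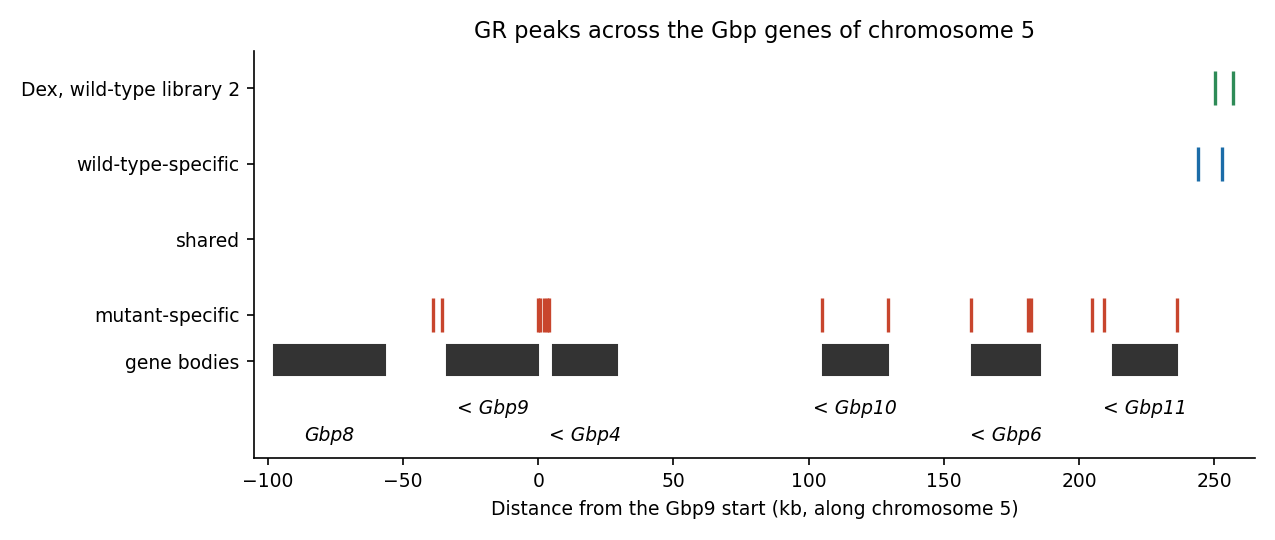
Map of the Gbp genes on chromosome 5, in kb from the Gbp9 start, with RefSeq gene bodies as bars and peak centres as ticks, including the 2 Dex peaks of wild-type library 2. The 14 mutant-specific peaks between the ends of Gbp8 and Gbp11 have no wild-type peak among them, and the wild-type-specific and Dex peaks lie beyond the Gbp11 start.

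By RefSeq starts, 7 of the 9 genes whose strand the files give had a peak edge within 1 kb of the start. The nearest peak was mutant-specific at Gbp3, Gbp9, Gbp10 and Gbp11, wild-type-specific at Gbp2 and Gbp5 and shared at Gbp7. Gbp4 and Gbp6 had none that close. The share of all genes with a peak this close to the start was not computed, so nothing is read from the 7 of 9. As the files give distances, 11 of 27 mutant-specific peaks (40.7%) were centred within 5 kb of the start of their gene, against 28.9% of all mutant-specific peaks. For wild-type-specific peaks these values were 3 of 8 (37.5%) and 17.1%. By the gene spans used for assignment, 16 of the 27 mutant-specific peaks were placed within their gene (59.3%, against 46.7% of the class). Gbp2 gave 9 of these, and 2 were Gbp10 peaks that lay outside the RefSeq gene.

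No mutant-specific Gbp peak lay directly beside a wild-type peak. Centre to centre, none of the 27 lay within 1 kb of a peak of the wild-type lists (wild-type-specific or shared), where 15.8% of all 2187 mutant-specific peaks did. The smallest distance was 3966 bp, in Gbp2, and the largest 282627 bp, at Gbp9. In Gbp2 the distances ran from 3966 to 10376 bp and in Gbp3 from 24239 to 26239 bp. On chromosome 5 the Gbp11 peaks were 7479 to 38998 bp away, the Gbp6 peaks 61698 and 62606 bp, the Gbp10 peaks 83695 to 138783 bp, and the Gbp4 and Gbp9 peaks 239850 to 282627 bp. The median was 34458 bp, against 7744 bp for the class. By contrast 23 of the 27 (85.2%) had another mutant-specific peak within 5 kb, against 37.5% of the class, with medians of 908 and 39300 bp. Peaks of a single gene are not independent of each other, so these shares were not tested.

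**Figure D5:**
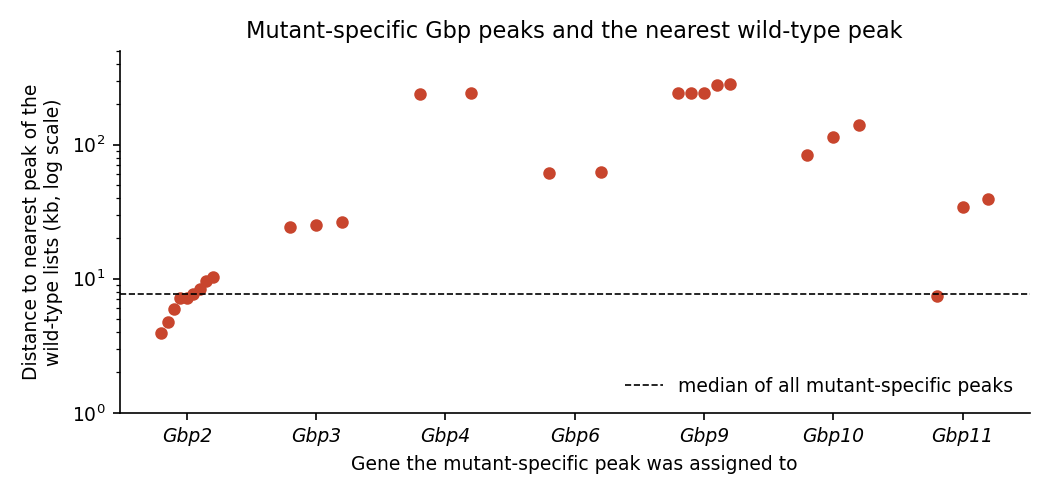
Distance in kb, on a log scale, from each mutant-specific Gbp peak to the nearest peak of the wild-type lists, by gene. The dashed line is the median of all mutant-specific peaks, 7744 bp; the points of Gbp3, Gbp4, Gbp6, Gbp9 and Gbp10 all lie above it.

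Under Dex alone the Gbp genes were nearly free of peaks. Mutant libraries 1 and 2 had no Gbp peak among 53 and 60 peaks, wild-type library 1 had none among 412, and wild-type library 2 had 2 among 854. Both were assigned to Gbp11, upstream of its start by 14064 bp (105360360 to 105360711) and 20693 bp (105366856 to 105367474). They overlapped no Dex+LPS peak. The centres were 2804 and 3826 bp from that of the nearest Dex+LPS peak, the farther upstream of the wild-type-specific Gbp11 peaks. A Dex peak in any library was assigned to 2.22% of protein-coding genes and to none of the 9 Gbp genes of that kind. The Dex peaks of Gbp11 were found in 1 library of 2. The lists were short, with 0 to 5 peaks per library on the whole of chromosome 3 and 2 to 25 on chromosome 5. A missing Gbp peak under Dex thus gives no measure of GR binding at these genes. None of the 36 Dex+LPS peaks of the Gbp genes overlapped a Dex peak, where 2.01% of all mutant-specific, 3.17% of all shared and 0.702% of all wild-type-specific peaks did.

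The protein-coding genes next to the Gbp groups differed in their peak numbers. Pdlim5, the next protein-coding gene before Gbp5 on chromosome 3, had 10 wild-type-specific peaks, 2 shared peaks and 1 from the mutant alone. Kyat3, on the other side, had none. On chromosome 5, Abcg3 before Gbp8 had none and Lrrc8b beyond Gbp11 had 1 wild-type-specific peak.

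Genes that act with the Gbp proteins in the interferon response differed in the class of their peaks. In a list of 25 genes of interferon signalling and of the GTPase effector pathway, 14 had a mutant-specific, 11 a wild-type-specific and 7 a shared peak, and 5 had none. These counts include the family member Gbp2b, whose assigned mutant-specific and shared peaks lay by position at Gbp5 and Gbp7. Of all protein-coding genes 5.36%, 30.6% and 9.37% had a peak of these classes. Among receptors and kinases, Ifnar1 (a chain of the type I interferon receptor) and Jak2 each had 1 peak in the mutant alone and 1 in wild type alone. The others, named after their values were seen, had no mutant-specific peak. Both chains of the interferon-gamma receptor, Ifngr1 and Ifngr2, had 2 wild-type-specific peaks each and Jak1 had 4. Ifnar2 had 2 and a shared peak, and Tyk2 had no peak. Of the transcription factors, Stat2 had 2 mutant-specific and no wild-type peak, and Irf1 had 2 mutant-specific and 1 shared peak. Irf9, named after its values were seen, had 1 shared peak alone. Irf2, which competes with Irf1, had 5 peaks in wild type alone, 2 in both genotypes and 2 in the mutant alone. Socs1, an inhibitor of JAK kinases, had 2 wild-type-specific peaks and 1 mutant-specific peak.

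The immunity-related GTPases are smaller relatives, some of which act with the Gbp proteins on vacuoles. Of this family, Iigp1 had 5, Irgm2 3, Tgtp1 3 and Tgtp2 3 mutant-specific peaks, with no wild-type peak. Igtp, of the same family and also named after its values were seen, had no peak of any class. Irgm1, another gene of the family, had 3 wild-type-specific peaks and 1 mutant-specific peak. Casp4, the caspase that senses lipopolysaccharide in the cytosol, had 3 mutant-specific peaks and 1 shared peak. Nlrp3, Casp1, Gsdmd and Aim2 of the same list, named after their values were seen, had no mutant-specific peak. Nlrp3 had 1 wild-type-specific and 1 shared peak, and Casp1, Gsdmd and Aim2 had no peak of any class. Tgtp1 and Tgtp2 are near-identical copies, and the sources used here do not say how reads that map to several places were treated. Their separate counts are therefore uncertain. Beyond the promoter windows, how much sequence the Gbp genes share was not measured here on either chromosome. The separate counts of the Gbp genes are therefore uncertain as well. At least 2 mutant-specific peaks were assigned to 1.5% of protein-coding genes and to 6 of the 9 protein-coding Gbp genes.

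The genes nearest to Gbp2 in their peak numbers were found by the Euclidean distance over the 3 lists, given here in the order wild type alone, both genotypes, mutant alone. They were Mir1932 (2, 0 and 10 peaks) and Zfp981 (2, 0 and 8), both at a distance of 1, Gm4951 and Parp14 (0, 0 and 9 each) at a distance of 2, and Ifit1bl1 (3, 0 and 7) at 2.24. Parp14 and Ifit1bl1 are interferon-inducible genes. Peaks assigned to a gene need not lie in it, and the likeness rests on counts alone.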

How the data were processed

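Peaks of GR in mouse embryonic fibroblasts were read from 3 merged Dex+LPS lists and 4 Dex lists, 1 per library. The deposited values are base-pair positions and distances to genes, in mm10, with no count, height or p-value of a peak. Tools named in the submitters' processing notes, in no stated order, are MACS2 2.1.0, BWA 0.7.13 and Picard 1.119. Per the file names, Dex+LPS libraries were merged by genotype and peaks of knockout cells removed; other steps are not given in the sources used here. Depth is therefore unknown.

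Peaks were taken by the authors' gene symbol. Distances run from peak centre to gene start. Overlap meant at least 1 bp. Shares were set against all peaks of a class, all protein-coding genes of a GRCm38 RefSeq table, or all promoter windows of RefSeq, which held windows for 4 of the 10 genes. Dex+LPS lists carry no spread between libraries, so no test was run. Interval and motif searches were tested on simulated data. Computation used Python 3.11.15, numpy 2.4.6, pandas 2.3.3 and matplotlib 3.10.9.

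The members, lists and named genes (all 10 members, pathway genes with a mutant-specific peak, flanking protein-coding genes and the 5 genes nearest to Gbp2 in peak numbers) were chosen with earlier results of these data known. Pathway genes without a mutant-specific peak were named after their values were seen. Sequences of the peaks themselves were not used here. The values of 1 gene of the pathway list are not reported here.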

Additional observations from a re-analysis of the deposited data

How the results depend on the processing

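Totals over the Gbp genes depended on how a peak was given to a gene. With peaks taken by position (gene span within 5 kb), wild-type-specific peaks fell from 8 to 5. With every peak between the outer ends of each gene group they numbered 4. With peaks inside RefSeq gene bodies, an alternative added after seeing the data, they numbered 3, with 0 shared and 16 mutant-specific peaks. Mutant-specific peaks outnumbered wild-type-specific ones under each of these. Peaks within 500 bp of each other, counted once, left each total within 1.5 times. No Gbp gene had 2 shared peaks (0 genes, against 1 with at least 1). With 1 kb as the limit from the start, 5 mutant-specific peaks were near it, and with 10 kb, 6 wild-type-specific peaks. With 5 kb as the limit, 2 mutant-specific peaks, both in Gbp2, were near a wild-type peak, and 1 wild-type-specific peak was near a Dex peak. The Dex peaks of wild type ranged from 0 to 2 when either library was left out. The longer or looser motif letters kept the number of windows with ISRE, GRE and NF-kB letters. The 10-letter kappa B consensus, added after seeing the data, stood in 2 windows against 0. Motifs over 200 bp peaks with added flanks were not run, since promoter windows alone gave sequence. No paired analysis was possible because the Dex+LPS lists are merged over libraries and no value of the Dex lists was tested. Depth, peak height and the knockout peaks behind the lists were not used here, which limits what a missing peak says.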
